A study of Saccharomyces cerevisiae with 6 samples.

Results

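The wild-type transcriptome of Saccharomyces cerevisiae in high salt was described from 3 libraries out of the 6 in the series, namely those whose labels give the wild-type genotype. Their library names also carry the term TAF1, whose meaning the labels do not give. The strain has the S288C background, the standard laboratory background of budding yeast, and the cells grew in 1.5 M NaCl on top of YPD, the usual rich medium with glucose. RNA was selected for poly(A) tails and sequenced with strand kept, and 7125 genes were listed per library. Salt-free cultures were not analysed here, so the values are levels in salt and no response to salt was measured. Nothing in the labels tells whether each library had its own culture, so the SD over libraries (n = 3) may be technical in part. Genes were ordered by their mean TPM, a level that is divided by gene length and scaled to the same total in each library.

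Yeast in high salt loses water and takes up sodium. It answers in general by making glycerol as an osmolyte through the high osmolarity glycerol (HOG) kinase pathway, by pumping sodium out, and by switching on a general stress programme whose promoters often hold the stress response element bound by the factors Msn2 and Msn4. Hydrophilins, small and very hydrophilic proteins made when water is scarce, belong to the genes known from that programme, while ribosomal protein genes are known to run against it.

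Depth was 34804321, 37893192 and 33638728 counts in libraries 1, 2 and 3. At least 1 count was found for 6413, 6440 and 6380 genes. A floor of 3 counts in a gene of 1 kb corresponded to 0.0810, 0.0748 and 0.0835 TPM. Genes of ribosomal RNA took 3.69%, 4.54% and 3.77% of counts. Between any 2 libraries, the counts differed more than counting error alone gives, with chi-square values of 41.3 to 82.3 per degree of freedom over 4853 genes, so no library was a copy of another.

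The strain's own marker genes were read before the other results. All 7 genes of the a mating type list were found, led by the pheromone genes MFA2 at 195 ± 73.1 TPM and MFA1 at 115 ± 8.98 TPM, and by the receptor gene STE2 at 41.4 ± 6.85 TPM. AGA2, BAR1, STE6 and AGA1 lay at 35.0, 25.7, 9.72 and 6.11 TPM. Among the 4 alpha mating type genes, the pheromone genes MF(ALPHA)1 and MF(ALPHA)2 and the receptor gene STE3 lay at 1.66, 1.37 and 1.12 TPM, while SAG1, the alpha agglutinin gene, lay at 19.5 ± 2.05 TPM. The haploid genes RME1, FUS3, GPA1, STE4 and STE18 were all found, from 28.7 TPM for STE4 to 259 TPM for RME1. The labels give no mating type. Of 9 genes that serve as auxotrophic or resistance markers, URA3 of pyrimidine synthesis, LEU2 of leucine synthesis and MET17 of methionine synthesis had 0 counts in every library. None of the 50-base windows of these 3 genes occurs elsewhere in the genome, and the floor of 3 counts limits URA3 to 0.101, 0.0931 and 0.104 TPM in libraries 1, 2 and 3. HIS3, of histidine synthesis, had 915, 1107 and 1031 TPM and ranked 136, but it overlaps YOR203W on the same strand. LYP1, TRP1, ADE2, CAN1 and LYS2 lay between 20.6 and 227 TPM. KAP114, the gene removed in the series' other strain, was present with 257, 336 and 312 counts, or 2.65 ± 0.309 TPM.

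The most abundant transcript came from SIP18, a hydrophilin gene that encodes a phospholipid-binding protein. It had 35774, 33892 and 36876 TPM in libraries 1, 2 and 3, so that 1 gene held 3.55% of the total. Its coding sequence is only 240 bases long and stands on chromosome XIII at 611016 to 611255, plus strand, in build R64. It is shown because no other transcript reached its level per length in the mean of the libraries, with the start and stop codons in capitals.

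SIP18 coding sequence: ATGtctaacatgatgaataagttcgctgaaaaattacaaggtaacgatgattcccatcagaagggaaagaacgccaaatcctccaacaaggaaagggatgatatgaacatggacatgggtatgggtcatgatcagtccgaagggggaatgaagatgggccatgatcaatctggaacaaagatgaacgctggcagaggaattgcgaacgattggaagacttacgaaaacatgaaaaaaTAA

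HSP12, which encodes a membrane-associated small stress protein, followed with 34744, 30021 and 29046 TPM. SPG4, a gene needed for survival in stationary phase, had 20615, 18999 and 21023 TPM. GRE1, the paralog of SIP18, had 21836, 15864 and 17745 TPM. SIP18 was above HSP12 in each of the 3 libraries, although their ranges over libraries overlapped. SPG4 was above GRE1 in libraries 2 and 3 and below it in library 1, so the order of that pair does not exceed the spread between libraries. TMA10, a ribosome-associated protein gene, had 18587, 16494 and 19371 TPM. The genes of 2 cell wall proteins, SPI1 and SED1, had means of 15688 ± 495 and 15473 ± 509 TPM. These 7 genes were the only ones above 10000 TPM, and together they held 16.3%, 14.7% and 15.4% of the total in libraries 1, 2 and 3.

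Below them the level dropped to 8961 ± 610 TPM for YBR085C-A, and ISU1, the scaffold of mitochondrial iron-sulfur cluster assembly, had 6648 ± 471 TPM. SPO24, a short gene known from sporulation, had 8365, 6042 and 6837 TPM. Next came the related small stress genes HOR7 and DDR2, the copper-zinc superoxide dismutase gene SOD1 at 6255 ± 399 TPM, the stationary phase gene SPG1 at 5704 ± 787 TPM, and YNL208W. YDR133C followed at 5119 ± 291 TPM, but it overlaps YDR134C on the same strand, a pseudogene that is listed at 0, so the assignment of reads between them is uncertain. STF2, a hydrophilin gene that acts on the mitochondrial ATPase, had 4926 ± 475 TPM, and PAI3, the cytoplasmic inhibitor of vacuolar proteinase A, had 4683 ± 502 TPM. The remaining genes of the first 30 lay between 3511 and 4134 TPM and were HSP150, TEF1, YNL195C, CIT2, MSC1, CUP1-2, CUP1-1, HXT5, ALD4, SNZ1, RDN37-1 and RDN37-2. HSP150 encodes a cell wall protein, TEF1 translation elongation factor 1 alpha, CUP1 metallothionein, HXT5 a hexose transporter, and SNZ1 a protein of vitamin B6 synthesis. The copies of CUP1 and of the ribosomal RNA precursor RDN37 have no 50-base window of their own, and 92.5% of the windows of TEF1 occur elsewhere, so their single levels are uncertain.

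**Figure D1:**
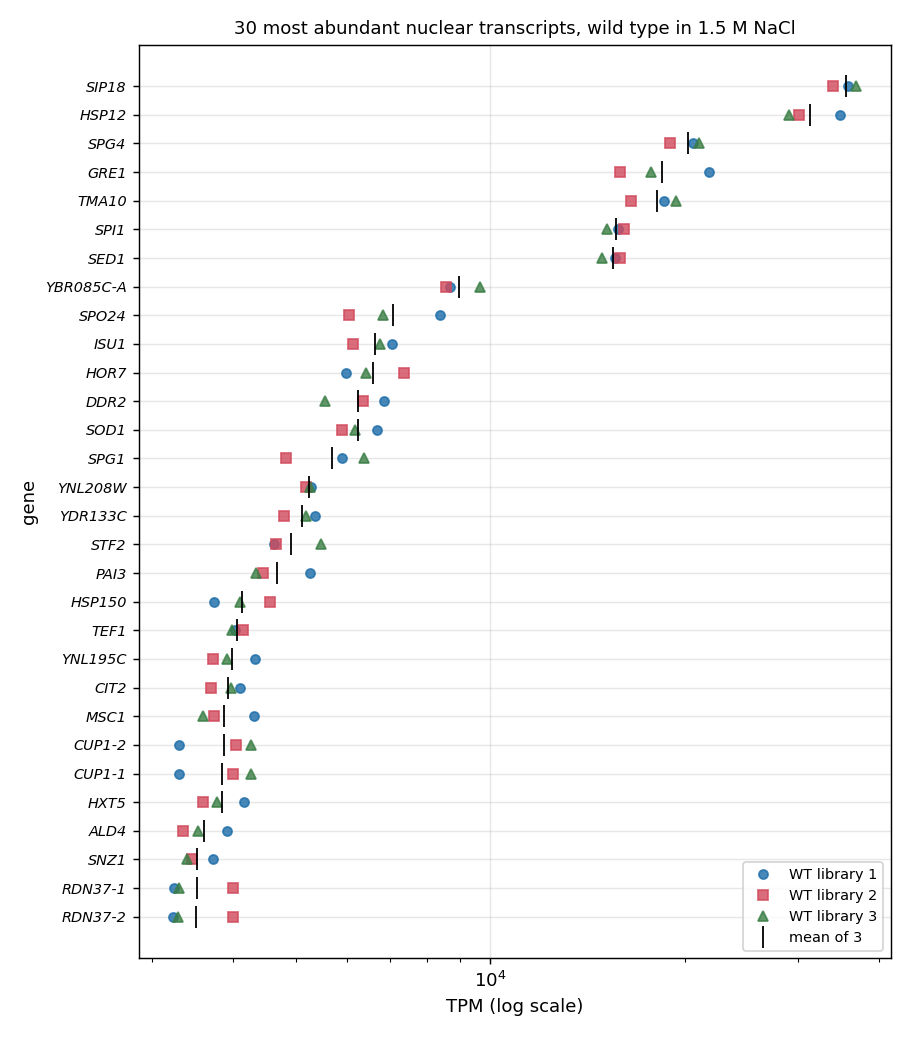
TPM (log scale) of the 30 nuclear genes with the highest mean level, highest at the top. Each marker is 1 wild-type library and each tick the mean of 3; SIP18 stands at 35514 TPM, and 7 genes lie above 10000 TPM.

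The first 30 genes were mostly short. The 27 protein-coding genes among the first 30 (as listed in the RefSeq annotation) had a median length of 447 bases, and 17 of them (63.0%) were under 600 bases. Among the 100 most abundant genes 44.2% of the protein-coding ones were under 600 bases, and among the 1000 most abundant 26.5%. Over all 5988 protein-coding genes the median was 1203 bases and 18.9% were under 600 bases. Without division by length, the order changed: by share of counts SED1, 1017 bases long, led the protein-coding genes with 1.67% of counts, HSP12 had 1.10%, GRE1 0.997% and SIP18 0.906%. SPO24, with 204 bases, ranked 9 by TPM and 77 by counts. SPG4 ranked 7 by counts, so SIP18, HSP12, SPG4, GRE1 and SED1 stood within the first 7 places on either scale.

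The promoters of the leading genes are shown next, since this group of transcripts sets the profile. Each window runs from 400 to 101 bases before the start codon, 5′ to 3′ on the gene's strand, from the RefSeq genome of build R64. Capitals mark AGGGG, the core of the stress response element, read on both strands (AGGGG or CCCCT). SIP18 and PAI3 are neighbours that run away from each other with 650 bases between them, and their windows share 150 bases on chromosome XIII that hold 2 matches.
SIP18, chrXIII:610616-610915, plus strand: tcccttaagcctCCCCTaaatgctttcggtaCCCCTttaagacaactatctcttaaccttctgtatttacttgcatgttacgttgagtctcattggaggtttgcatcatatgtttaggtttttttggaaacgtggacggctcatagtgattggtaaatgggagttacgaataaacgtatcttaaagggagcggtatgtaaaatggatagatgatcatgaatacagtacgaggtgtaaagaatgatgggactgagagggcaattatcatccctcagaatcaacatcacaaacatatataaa
PAI3, chrXIII:610466-610765, minus strand: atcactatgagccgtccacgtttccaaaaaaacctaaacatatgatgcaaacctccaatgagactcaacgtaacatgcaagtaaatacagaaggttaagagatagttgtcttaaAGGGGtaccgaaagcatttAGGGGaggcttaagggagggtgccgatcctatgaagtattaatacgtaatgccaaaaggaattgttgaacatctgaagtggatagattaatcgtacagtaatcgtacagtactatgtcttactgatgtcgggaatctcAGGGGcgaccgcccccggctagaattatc
HSP12, chrVI:106856-107155, plus strand: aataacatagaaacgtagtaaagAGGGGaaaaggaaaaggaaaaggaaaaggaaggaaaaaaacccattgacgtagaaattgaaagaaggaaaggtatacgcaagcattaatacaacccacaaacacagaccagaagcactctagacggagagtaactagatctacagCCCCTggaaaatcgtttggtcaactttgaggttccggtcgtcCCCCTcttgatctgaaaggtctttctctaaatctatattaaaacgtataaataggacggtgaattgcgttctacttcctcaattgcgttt
DDR2, chrXV:231856-232155, minus strand: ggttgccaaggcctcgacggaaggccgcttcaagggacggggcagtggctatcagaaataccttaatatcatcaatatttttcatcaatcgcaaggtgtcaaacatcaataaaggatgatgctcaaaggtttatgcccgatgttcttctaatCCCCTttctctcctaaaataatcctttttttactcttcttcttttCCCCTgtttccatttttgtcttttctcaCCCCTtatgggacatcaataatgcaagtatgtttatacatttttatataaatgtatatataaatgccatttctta
SPG4, chrXIII:482614-482913, plus strand: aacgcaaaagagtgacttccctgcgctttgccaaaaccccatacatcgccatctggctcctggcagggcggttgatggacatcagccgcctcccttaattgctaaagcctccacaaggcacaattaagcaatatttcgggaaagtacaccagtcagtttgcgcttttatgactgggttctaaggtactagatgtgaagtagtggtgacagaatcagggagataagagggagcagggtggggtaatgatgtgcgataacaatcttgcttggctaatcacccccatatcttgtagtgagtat
GRE1, chrXVI:129239-129538, minus strand: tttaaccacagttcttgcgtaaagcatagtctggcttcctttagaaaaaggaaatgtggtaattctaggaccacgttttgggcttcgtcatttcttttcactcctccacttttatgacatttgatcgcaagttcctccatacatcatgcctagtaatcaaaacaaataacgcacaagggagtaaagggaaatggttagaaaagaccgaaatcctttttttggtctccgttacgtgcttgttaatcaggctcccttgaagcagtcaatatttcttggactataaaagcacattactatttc

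The windows of SIP18, PAI3, HSP12 and DDR2 hold 2, 3, 3 and 3 matches. Those of SPG4 and GRE1 hold 0, and both are shown because they stand among the first 4 genes and lack these letters in the window. The windows of TMA10, SPI1 and SED1, at ranks 5, 6 and 7, are not shown and hold 1, 3 and 1 matches. PAI3 and DDR2 stand lower, at ranks 18 and 12, so the windows shown are picked examples. Of the 27 windows of protein-coding genes among the first 30, 18 (66.7%) hold the motif and 11 (40.7%) hold 2 or more. Among all 5987 such windows of nuclear protein-coding genes, 1410 (23.6%) hold it and 245 (4.09%) hold 2 or more. In the 137 ribosomal protein windows the motif was found in 26 (19.0%), and 3 (2.19%) hold 2 or more. Median levels were 33.0 TPM for the 4577 genes whose windows lack the motif, 56.1 TPM for 1165 genes with 1 match, 140 TPM for 196 genes with 2 matches and 305 TPM for 49 genes with 3 or more. A match is a stretch of letters and no measurement of binding. MSN2 itself had 75.5 ± 1.79 TPM and MSN4 had 29.8 ± 2.24 TPM.

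The distribution of levels was steep. The first 10 genes held 17.8 ± 0.88% of total TPM, the first 100 held 41.2 ± 1.10% and the first 1000 held 78.3 ± 0.44% (SD, n = 3). In libraries 1, 2 and 3 it took 174, 199 and 190 genes to reach 50% of the total, and 1961, 2047 and 2035 genes to reach 90%. At the other end, 3242 genes had a mean of 10 to 100 TPM and held 12.9% of the total, and 1123 genes of 1 to 10 TPM held 0.570%. The median of the protein-coding genes was 37.8 TPM.

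**Figure D2:**
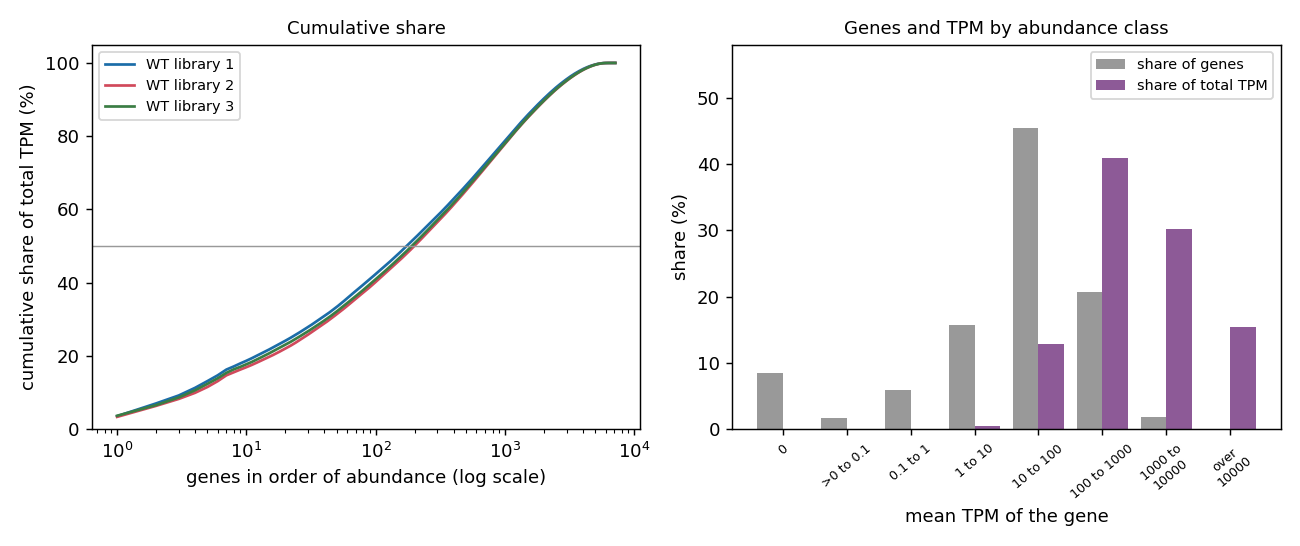
Left, cumulative share of total TPM (%) against the number of genes in order of abundance (log scale), 1 line per wild-type library, with a grey line at 50%. Right, share of genes and share of total TPM (%) by class of mean TPM; the class of 100 to 1000 TPM holds 40.9% of the total.

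Levels were then summed over gene lists, with the values of all genes beside them. The lists together hold 1113 genes with 51.6% of total TPM, and 10 genes stand in more than 1 list. The list of hydrophilins and related small stress proteins took 16.6%, 15.1% and 15.6% of total TPM with 25 genes. This list is broad and also holds genes of other kinds, such as the cell wall gene SPI1 and the ribosomal protein gene RPL42A. Its members were chosen with earlier results of these data known, so its place ahead of other lists is no independent result. Its members ranged from 91.0 TPM for NOP6 to SIP18 at the top, with a median of 1904 TPM, against 26.9 TPM over all 7125 genes. Of the 25 members, 24 reached 100 TPM, as did 1611 of all genes. The stationary phase and quiescence list, with SPG4, GRE1 and SPI1 in front, took 9.69%, 8.66% and 9.05% with 37 genes and a median of 618 TPM. GRE1 and SPI1, among others, also belong to the hydrophilin list, so the shares of these lists overlap. By share of counts the order of these lists changed, with 6.50% for stationary phase and 5.97% for hydrophilins. The cell wall list took 5.19%, 5.74% and 5.18% with 49 genes, and SPI1, SED1 and HSP150 led it, whereas its median was 111 TPM. SPI1 is counted in this list too.

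**Figure D3:**
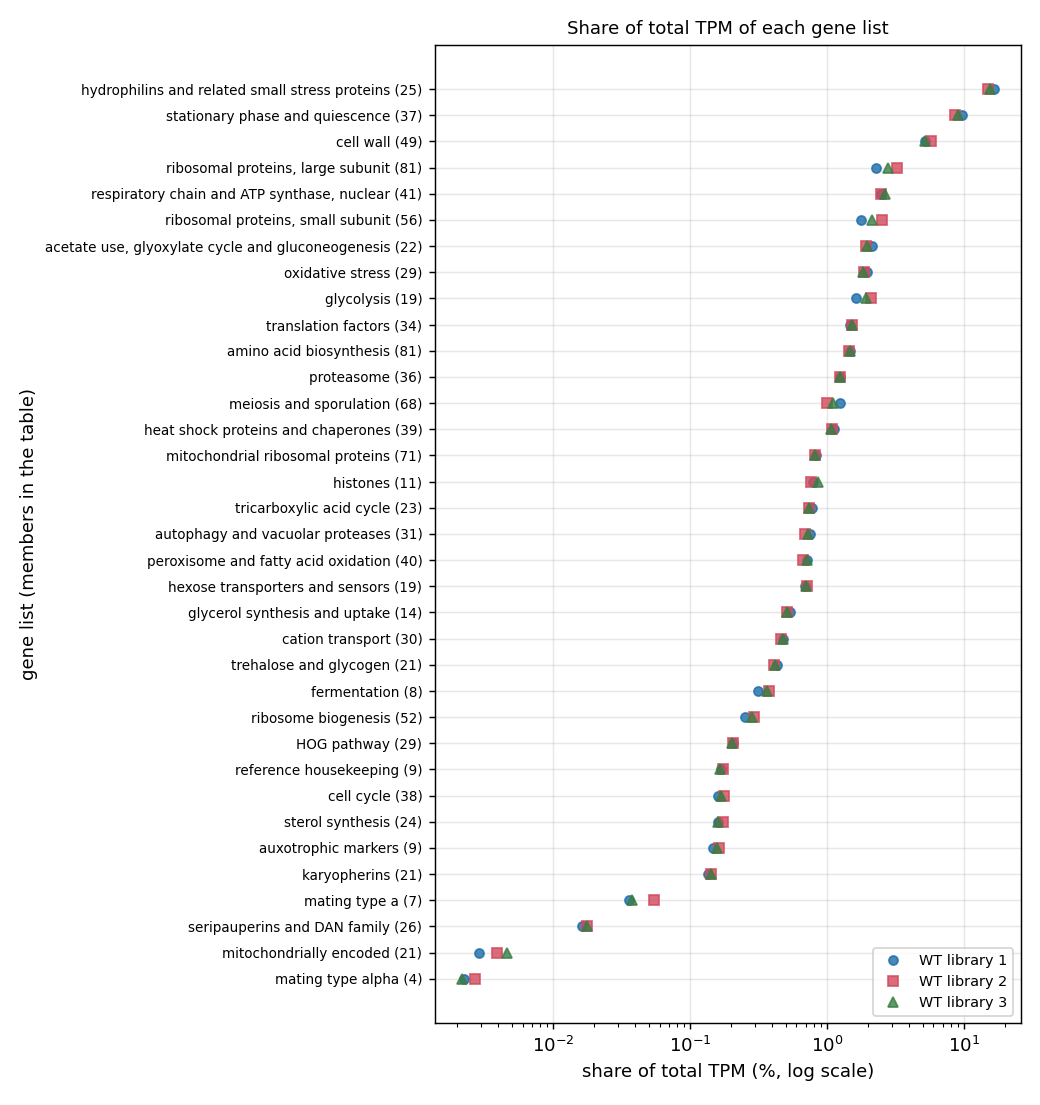
Share of total TPM (%, log scale) of each gene list, highest at the top, with the number of members in brackets and 1 marker per wild-type library. Hydrophilins and related small stress proteins stand at 15.1% to 16.6%, ahead of every other list in each library. Some genes belong to more than 1 list, so shares overlap. The lists were chosen with earlier results of these data known, so their order is no independent result.

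The 137 ribosomal protein genes of both subunits took 4.07%, 5.81% and 4.92% of total TPM. By share of counts, the large subunit held 1.41% and the small subunit 0.979%. The value rests on exon lengths for genes with introns: with whole region lengths, the large subunit held 1.85% in place of 2.78% and the small subunit 1.54% in place of 2.16%. No member exceeded 1165 TPM, the level of RPS30A, and the median was 303 TPM. RPL10, a late-joining protein of the large subunit, had 942, 1210 and 1089 TPM, and RPL36B had 1069 ± 150 TPM. The lowest members were the minor copies RPL22B at 29.2 ± 6.97 TPM, RPL41B at 35.2 ± 12.7 TPM and RPS9A at 41.8 ± 13.0 TPM. For RPL41B 69.0% of the windows occur elsewhere, so its level is uncertain. Ribosome biogenesis genes, which make and process pre-ribosomes, took 0.277 ± 0.022% with 52 genes and a median of 33.1 TPM. Translation factors took 1.51 ± 0.03%, most of it from TEF1 at 4055 ± 79.4 TPM, its copy TEF2 at 2618 ± 88.7 TPM and HYP2, which encodes eIF5A, at 2427 ± 121 TPM.

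In carbon metabolism, the leading members of both the glycolysis list and the list of acetate use stood at high levels. Glycolysis genes took 1.62%, 2.09% and 1.92% with 19 genes, led by the glucokinase gene GLK1 at 3645, 3003 and 3014 TPM. TDH3, of glyceraldehyde-3-phosphate dehydrogenase, had 2475, 3432 and 2985 TPM, and FBA1, of aldolase, had 2006, 3090 and 2669 TPM. GLK1 was highest in library 1, while TDH3 and FBA1 were lowest there. For TDH3 24.4% of the windows occur elsewhere, so its level is uncertain. The fermentation list took 0.353 ± 0.033% and rested on ADH1 at 1537 ± 77.8 TPM and PDC1 at 1256 ± 266 TPM. Genes for acetate use, the glyoxylate cycle and gluconeogenesis took 2.13%, 1.93% and 1.95% with 22 genes. CIT2, the peroxisomal citrate synthase, had 4102, 3695 and 3979 TPM, the mitochondrial aldehyde dehydrogenase gene ALD4 had 3919, 3355 and 3536 TPM and its cytosolic relative ALD6 had 3098 ± 200 TPM. Gluconeogenic genes themselves were lower, with PCK1 at 269 ± 6.53 TPM and FBP1 at 103 ± 4.17 TPM. So were the glyoxylate cycle genes ICL1 at 226 ± 15.8 TPM and MLS1 at 60.1 ± 7.60 TPM. PCK1, FBP1, ICL1 and MLS1 fall outside the naming rule and were picked with their values known.

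The tricarboxylic acid cycle list took 0.756% with 23 genes, and PYC1, SDH2 and CIT1 led it at 1040, 872 and 784 TPM. PYC1, of pyruvate carboxylase, does not encode an enzyme of the cycle itself. Nuclear genes of the respiratory chain and ATP synthase took 2.50%, 2.48% and 2.64% with 41 genes, of which STF2, COX13 at 1814 TPM and QCR8 at 1735 TPM were the highest. STF2 is counted in the hydrophilin list too. Mitochondrially encoded genes held 0.00382% in total in this poly(A) selection, and 3 of 21 listed had 0 counts. The highest of them, the large ribosomal RNA gene 21S_RRNA, had 16.3 TPM.

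No gene of the glycerol, HOG pathway or cation transport lists stood among the first 30, and GPP1, at rank 89, was the one within the first 100. The list of glycerol synthesis and uptake took 0.521 ± 0.015% of total TPM with 14 genes. It also holds genes of glycerol breakdown, such as GUT2, so its share is not that of synthesis alone. GPP1, a glycerol-3-phosphatase gene, led at 1568, 1418 and 1529 TPM, and the mitochondrial glycerol-3-phosphate dehydrogenase gene GUT2 and the reductase gene GCY1 followed at 808 and 765 TPM. GPD1, the main cytosolic glycerol-3-phosphate dehydrogenase gene of the osmotic response, had 448, 444 and 427 TPM, and STL1, a glycerol importer gene named after its values were seen, had 124 ± 7.10 TPM. Genes of the HOG pathway held 0.205 ± 0.001% with 29 members and a median of 38.0 TPM. OPY2, CDC42 and RCK2 were the highest at 397, 268 and 195 TPM, and HOG1, the kinase itself, named after its values were seen, had 96.9 ± 2.30 TPM. Cation transport genes took 0.474 ± 0.011% with 30 members. ENA1, which encodes the sodium-exporting ATPase, had 1072, 961 and 937 TPM and led this list ahead of PMP3 at 815 TPM and the phosphate and sodium symporter gene PHO89 at 703 TPM. PMA1, which encodes the plasma membrane proton pump, had 102, 148 and 134 TPM.

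Storage and protective genes were summed list by list. The trehalose and glycogen list took 0.419 ± 0.010% with 21 genes, led by TPS1, of trehalose synthesis, at 930 ± 46.5 TPM and by the trehalase gene NTH1 at 473 ± 12.8 TPM. Oxidative stress genes took 1.89 ± 0.06%, and SOD1, the cytosolic catalase gene CTT1 at 1686 ± 119 TPM and the glutaredoxin gene GRX1 at 999.9 ± 60.6 TPM stood in front. The list of heat shock proteins and chaperones took 1.10 ± 0.03% with 39 genes. HSP12, HSP26 and HSP42, at 31270, 2504 and 819 TPM, are counted in the hydrophilin list and not in this one. Within this list the cyclophilin gene CPR1 led at 2784 ± 103 TPM, while HSP10 and SBA1 had 680 and 644 TPM. CPR1 is overlapped on its strand by YDR154C, whose own level was 1717 TPM. The proteasome list took 1.25%, 1.25% and 1.25% with 36 members. UBI4, the polyubiquitin gene and not a gene of a proteasome subunit, led it at 1279 ± 66.4 TPM.

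Several lists had members near the bottom of the range. Of 68 meiosis and sporulation genes, 47 lay under 10 TPM and 18 under 1 TPM, and the list's share of 1.12% came mainly from SPO24 and from SPS100, a spore wall maturation gene, at 2724 ± 87.5 TPM. GSC2, a glucan synthase gene, was next at 409 TPM. Of 38 cell cycle genes, 15 lay under 10 TPM, among them the G1 cyclin genes CLN1 at 5.17 ± 1.24 TPM and CLN2 at 6.79 ± 0.99 TPM. SIC1, which encodes an inhibitor of the cyclin-dependent kinase, led that list with 381, 355 and 396 TPM, ahead of the ribonucleotide reductase genes RNR4 and RNR2 at 351 and 247 TPM. Of 26 seripauperin and DAN genes, 21 lay under 10 TPM, and 22 of the 26 share more than 10% of their 50-base windows with other sites. Among all genes, 2272 of 7125 lay under 10 TPM. That total includes tRNA and other RNA genes listed at 0, so it is not a like background for these lists. Of the protein-coding genes, 15.5% lay at 1 to 10 TPM and 2.69% at 0.1 to 1 TPM. A further 0.618% lay above 0 and under 0.1 TPM, and 1.44% were at 0.

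The hexose transporter list took 0.701 ± 0.010% with 19 genes, and HXT5 alone had 4156, 3591 and 3786 TPM. HXT7 and HXT2, genes of high-affinity transporters, had 1376 and 893 TPM, although 95.1% of the windows of HXT7 occur elsewhere. HXT1, a low-affinity transporter gene, had 136 ± 12.4 TPM, HXT14 and HXT8 had 0.416 and 0.244 TPM, and HXT16, with 94.0% of its windows repeated, had 0 counts. The naming rule does not cover HXT1, HXT14 and HXT8, which were picked with their values known.

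Amino acid biosynthesis took 1.46 ± 0.01% with 81 genes, led by CPA1, of arginine synthesis, at 2943 TPM, by LYS20, of lysine synthesis, at 1316 TPM and by GDH3. For LYS20 37.8% of the windows occur elsewhere, so its level is uncertain. Autophagy genes and vacuolar proteases took 0.727 ± 0.030%, and the protease genes PRB1, PEP4 and PRC1 had 1542, 1396 and 974 TPM. Peroxisome and fatty acid oxidation genes took 0.701% with FAA1 at 2285 TPM in front of POT1 at 763 TPM. Sterol synthesis genes took 0.165% with 24 members, of which ERG9, ERG25 and ERG10 were the highest at 217, 146 and 144 TPM. Mitochondrial ribosomal proteins took 0.821% with 71 genes, histones 0.807% with 11 and karyopherins, nuclear transport receptors and their partners, 0.140% with 21. The reference housekeeping genes SPT15, SUA7 and ACT1 had 417, 321 and 315 TPM.

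Paralogs, gene copies that encode related proteins, were compared within each library as the log2 ratio of TPM, first-named gene over the other. Some pairs join subunits of 1 enzyme or forms of different compartments. Some genes, such as SSA2, stand in several pairs, so the pairs are not independent. In 39 of 79 isoenzyme pairs the first-named member was higher in all 3 libraries, in 38 it was lower in all 3, and 2 were mixed. The glucan synthase pair FKS2 over FKS1 was left out because no gene is listed under the name FKS2. The median size of the ratio was 3.11-fold, 38 pairs differed by 4-fold or more, and 10 differed by less than 1.5-fold. In 4 pairs the mean log2 ratio was within 2 SD of 0. With 3 libraries an exact sign-flip test cannot go below p = 0.25, so no test is given.

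The pairs of carbon metabolism had among the widest gaps. GLK1 exceeded HXK2, the hexokinase gene of glucose-grown cells, at 3645, 3003 and 3014 TPM for GLK1 and a mean of 85.5 ± 14.5 TPM for HXK2, a log2 ratio of 5.24 ± 0.41. HXK1, the other hexokinase gene, had 1139 ± 48.5 TPM, or 3.75 ± 0.22 over HXK2. ACS1, the acetyl-CoA synthetase gene of growth on non-fermentable carbon, had 1625 ± 103 TPM and ACS2 had 40.9 ± 5.29 TPM, a log2 ratio of 5.32 ± 0.27. PGM2 exceeded PGM1, both of phosphoglucomutase, by 5.17 ± 0.19, and PYC1 exceeded PYC2, both of pyruvate carboxylase, by 4.65 ± 0.14. CIT2 stood over CIT1, the mitochondrial citrate synthase gene, by 2.32 ± 0.14, and TKL2 stood over TKL1, both of transketolase, by 3.91 ± 0.39. ADH2, the alcohol dehydrogenase gene of ethanol use, had 57.8 ± 7.12 TPM and ADH1, of ethanol formation, had 1537 TPM, a log2 ratio of -4.74 ± 0.19. PYK2 lay below CDC19, both of pyruvate kinase, at -3.20 ± 0.34, and PDC6 lay below PDC1, both of pyruvate decarboxylase, at -5.10 ± 0.33. ADH1 and ADH2 share more than 10% of their windows, so their split is uncertain. Among the genes known from non-fermentative growth, ACS1 was the higher member of its pair and ADH2 the lower.

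**Figure D4:**
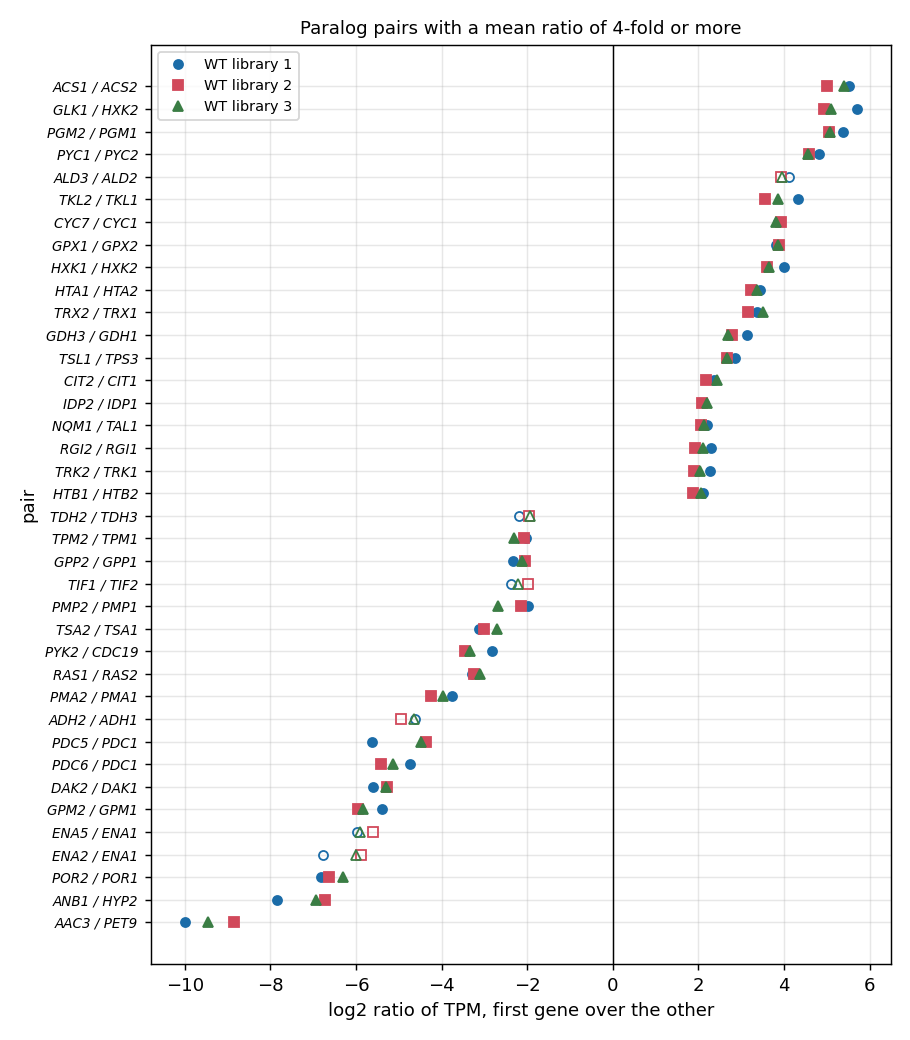
Log2 ratio of TPM, first gene over the other, for the 38 isoenzyme pairs with a mean ratio of 4-fold or more, 1 marker per wild-type library; open markers show pairs with more than 10% repeated 50-base windows in a member. ACS1 over ACS2 stands highest at 5.32 and AAC3 over PET9 lowest at -9.43.

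Osmotic and stress pairs ranged from a wide gap to none beyond the spread. GPD1 had 440 ± 11.1 TPM and GPD2, its relative of redox balance, had 139 ± 4.28 TPM, a log2 ratio of 1.66 ± 0.03. In the next step of glycerol synthesis GPP2, the copy known for its response to osmotic stress, had 335 ± 21.6 TPM and GPP1 had 1505 ± 77.7 TPM, a log2 ratio of -2.17 ± 0.14. ENA2 and ENA5 stood at 13.5 and 17.5 TPM and ENA1 at 990 TPM, but 88.5% to 100% of the windows of these genes are repeated, so the split between them is uncertain. TRK2, a potassium transporter gene, exceeded TRK1, the high-affinity one, by 2.07 ± 0.19. SIP18 exceeded GRE1 by 0.95 ± 0.21, and DDR2 and HOR7 differed by -0.07 ± 0.23, with DDR2 higher in 1 library and HOR7 in the other 2. TSL1 stood over TPS3, regulatory subunits of trehalose synthesis, by 2.73 ± 0.11. NTH2 stood below NTH1, both of trehalase, at -1.56 ± 0.03. CTT1 had 1686 TPM and CTA1, the peroxisomal catalase gene, had 762 TPM, a log2 ratio of 1.14 ± 0.07. TRX2 exceeded TRX1, both of thioredoxin, by 3.35 ± 0.17, GPX1 exceeded GPX2 by 3.85 ± 0.03 and TSA2 lay below TSA1, both of peroxiredoxin, at -2.94 ± 0.21.

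Pairs that respond to oxygen gave a mixed order. CYC7, the cytochrome c gene known as the low-oxygen isoform, had 560 ± 7.90 TPM and CYC1 had 38.3 ± 1.97 TPM, a log2 ratio of 3.87 ± 0.05. COX5B, known as the low-oxygen subunit, had 776 ± 24.2 TPM and COX5A had 513 ± 30.1 TPM, a ratio of 0.60 ± 0.07. AAC3, a low-oxygen ADP/ATP carrier gene, lay at 1.16 ± 0.43 TPM with PET9, the main carrier gene, at 761 ± 36.8 TPM, a log2 ratio of -9.43 ± 0.58. ANB1, the low-oxygen eIF5A gene, lay at -7.17 ± 0.59 relative to HYP2. Pairs of other functions included GDH3 over GDH1, of glutamate synthesis, at 2.86 ± 0.24, HTA1 over HTA2, of histone H2A, at 3.35 ± 0.11 and NQM1 over TAL1, of transaldolase, at 2.13 ± 0.07.

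The 57 ribosomal protein pairs were more even than the isoenzymes. Their median size was 1.75-fold, 7 pairs differed by 4-fold or more and 22 by less than 1.5-fold. The A copy was higher in all libraries in 34 pairs, the B copy in 21, and 2 were mixed. In 7 of the 57 pairs the mean log2 ratio was within 2 SD of 0. RPS28A over RPS28B had the widest gap at 3.49 ± 0.14, with 643 ± 94.8 TPM for RPS28A and 57.7 ± 13.4 TPM for RPS28B, and RPS14A over RPS14B followed at 3.32 ± 0.13. In the other direction RPS9A over RPS9B stood at -2.61 ± 0.17 and RPL36A over RPL36B at -1.87 ± 0.06. RPL22A over RPL22B at 2.73 ± 0.04 and RPL33A over RPL33B at 1.10 ± 0.05 varied little between libraries. In 16 of these pairs, and in 16 of the isoenzyme pairs, a member shares more than 10% of its windows with another site, so reads could be split between the copies.

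Of the listed genes, 606 had 0 counts in all 3 libraries, and their classes differed. Among 5988 protein-coding genes 86 (1.44%) were at 0, and among 656 open reading frames that RefSeq does not list, 96 (14.6%) were. Of 275 tRNA genes, 269 were listed at 0, as were 95 of 97 other RNA genes. Those at 0 include SCR1 of the signal recognition particle, RPR1 and NME1 of ribonucleases P and MRP, and TLC1 of telomerase, which cells use, so a 0 in these classes is reported only as listed at 0. The 2 other RNA genes with counts were SNR17A, with 63.9, 127 and 90.1 TPM, and SNR17B, with 7.89, 17.4 and 10.6 TPM, which encode the U3 RNA of rRNA processing. Mitochondrial genes were at 0 in 33 of 55 cases.

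Among the 86 protein-coding genes at 0, 38 were retrotransposon genes. The gag genes of Ty elements were at 0 in 30 of 45 cases and the gag-pol genes in 8 of 46. Of the gag genes, 41 lie wholly within a gag-pol gene on the same strand, and no gag-pol gene exceeded 22.7 TPM. Over all protein-coding genes, 45 lie wholly within a gene on the same strand and 31 of these were at 0. Repeats covered more than 90% of the windows in 43 of the 86 genes, and 14 of the 86 (16.3%) lay within 20 kb of a chromosome end, against 246 of the 5988 (4.11%). Another 32 of the 86 had no more than 10% of their windows repeated. Of these, 20 were under 300 bases and 27 had no gene symbol. The 7 undetected genes with a symbol were URA3, LEU2, MET17, HXT16, PAU9, APQ13 and IRC13. IRC13 overlaps SNR17A on the same strand, and all windows of PAU9 are repeated. A further 30 protein-coding genes had a count but stayed under 3 in every library.

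Open reading frames outside RefSeq had a median of 0.473 TPM, and 11 of 656 reached 100 TPM. Of these 11, 10 overlap a gene on the same strand, as YDR133C does with YDR134C and YFR052C-A, at 630 TPM, with HXK1. The other is YLR154W-E, at 309 ± 111 TPM, which lies opposite the ribosomal RNA precursor and has no unique window. Apart from YDR133C and YLR154W-E, these frames were picked with their values known.

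The spread between libraries was small for most genes. Over 4853 genes with a mean of 10 TPM or more, the median coefficient of variation (CV, SD over mean) was 6.48%, against 1.93% that counting error alone gives at these depths. The median was 8.28% at 10 to 30 TPM, 5.71% at 100 to 300 TPM and 7.40% at 1000 TPM or more. A CV over 20% was found for 267 genes (5.50%). Between libraries 2 and 1, 183 genes differed by more than 1.5-fold and 13 by more than 2-fold, and 11 of the 13 were higher in library 2. Libraries 3 and 1 differed by more than 1.5-fold in 68 genes, and libraries 3 and 2 in 55.

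Ribosomal protein genes were frequent among the most variable genes of 100 TPM or more. Their median CV was 19.5%, and all 137 were highest in library 2 or 3, with 129 (94.2%) highest in library 2 and 128 (93.4%) lowest in library 1. Of all 4853 genes, 39.5% were highest in library 2 and 45.0% lowest in library 1. Of the 100 genes with the largest CV among the 1611 at 100 TPM or more, 63 encode ribosomal proteins, which make up 7.82% of the 1611. Glycolysis genes followed the same order, with 15 of 18 highest in library 2 and 15 lowest in library 1, and so did ribosome biogenesis genes, with 33 of 45 highest in library 2 and 42 lowest in library 1. Cell wall genes were highest in library 2 in 35 of 44 cases. In the opposite direction, 20 of 37 stationary phase genes and 16 of 22 acetate-use genes were highest in library 1, against 24.9% of all genes. The proteasome, HOG pathway and trehalose and glycogen lists had median CVs of 3.73%, 4.26% and 4.58%. Library 2 also had the most counts and the largest share of ribosomal RNA, and whether depth or RNA composition had a part in this order was not tested.

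**Figure D5:**
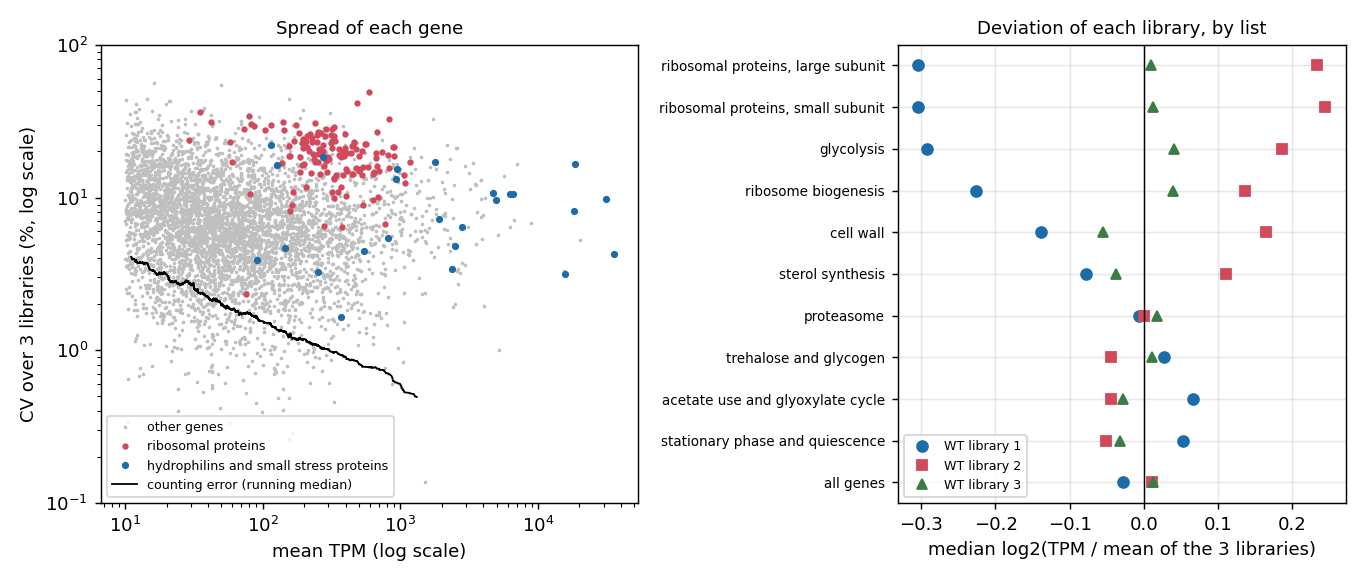
Left, CV over the 3 wild-type libraries (%, log scale) against mean TPM (log scale) for genes of 10 TPM or more, with the running median of the CV that counting error gives. Right, median over the members of a list of log2(TPM over the mean of the 3 libraries), 1 marker per library; ribosomal proteins of the large subunit stand at -0.30 in library 1 and 0.23 in library 2, and all genes at -0.03 and 0.01.

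Among genes of at least 100 TPM, the largest CV belonged to RPL39, a small protein gene of the large subunit, with 403, 924 and 440 TPM and a CV of 49.3%. RPL30 had 351, 715 and 388 TPM, and RPS30B, RPS7A and RPS8B were also among the first 10. Of the other 5, YAT1, of carnitine acetyltransferase, had 234, 107 and 126 TPM and was the one high in library 1. MFA2 had 153, 280 and 153 TPM, and REE1, a gene of enolase regulation, had 143, 259 and 161 TPM. QCR8, a subunit of respiratory complex III, had 1432, 1386 and 2387 TPM and stood apart in library 3. YLR154W-E, described above, was the remaining one.

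The steadiest was ORM2, a regulator gene of sphingolipid synthesis, with 1517, 1521 and 1518 TPM and a CV of 0.137%. UFD1, of protein degradation, had 156, 156 and 157 TPM, and the 6-phosphofructo-2-kinase gene PFK26 had 164, 164 and 163 TPM. SIS2, a phosphatase inhibitor gene of salt tolerance, had 142, 142 and 141 TPM. RPT3, GLO3, DCW1, PPN1, UBC8 and AAD10 completed the 10, with CVs from 0.458% to 0.614%. All 10 CVs lie under the CV that counting error gives for the same counts, which was 0.518% for ORM2, so these genes are the lowest of 1611 by selection and cannot be ranked among themselves.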

How the data were processed

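Poly(A) RNA of 3 wild-type libraries was sequenced with strand kept, per the labels' protocols. The authors deposited, per the file headers, total counts per gene, RPKM (reads scaled by gene length and library total) and TPM (the same, scaled to a fixed sum). FastQC and build R64 are named in the submitters' processing notes, while the sources used here name no aligner or counter. Of the reads behind the RPKM, 85.0%, 85.2% and 83.2% fell on listed genes in libraries 1, 2 and 3.

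TPM was used as deposited. Genes were matched to the RefSeq annotation of R64 by place (6424) or by name (14), which is 90.4% of 7125. Repeated sequence was measured as the percent of 50-base windows of a gene found elsewhere in the genome, and above 10% a level was taken as uncertain. Means and SD are over 3 libraries, and intervals of counting error cover counting only. TMM factors came from edgeR 4.0.16 in R 4.3.3, and other steps used Python 3.11.15 with pandas 2.3.3 and numpy 2.4.6. The steps were tested on simulated data.

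The genes named were the 30 highest by mean TPM, the 3 highest and up to 3 undetected members of each list, both members of each paralog pair, the 10 highest and 10 lowest CVs at 100 TPM or more, the strain markers and KAP114. Members and lists were chosen with earlier results of these data known. No comparison between strains was made.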

Additional observations from a re-analysis of the deposited data

How the results depend on the processing

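No paralog ratio changed sign under the alternatives run. The order of lists did change by share of counts: stationary phase stood above hydrophilins, and glycolysis above the large ribosomal subunit. By share of counts, not divided by length, the first 100 genes held 33.9% in place of 41.2%, hydrophilins 5.97% in place of 15.8%, glycolysis 2.32% in place of 1.88%, and ribosomal proteins of the large and small subunit 1.41% and 0.979% in place of 2.78% and 2.16%. With TPM recomputed from region lengths, introns included, those subunits held 1.85% and 1.54%. Counting genes with a mean under 1 TPM in place of 0 counts gave 1149 genes in place of 606, and 284 protein-coding genes in place of 86. The median CV was 7.49% over genes of 1 TPM or more and 8.16% over genes with a count, in place of 6.48%, and 5.07% to 5.59% with 1 library left out. A median CV over fewer libraries comes out lower for the same spread, so these last values are not comparable with 6.48%. Leaving out 1 library gave 40.6% to 41.7% for the first 100 genes, 15.3% to 16.1% for hydrophilins, 1.77% to 2.00% for glycolysis, 2.54% to 3.03% and 1.96% to 2.34% for the large and small subunit, and 631 to 657 genes at 0, of which 95 to 104 were protein-coding. Of 136 paralog ratios, 21 moved by more than 1 SD with region lengths and 4 with a pseudocount of 1 TPM. No paired analysis was possible because only 1 group was described. Depth limits levels near the floor of 3 counts, and without a library from medium lacking added salt no change with salt can be read from these levels.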
